A study of Mus musculus with 6 samples.

Results

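The acute phase proteins are plasma proteins whose production by the liver changes during injury or infection, and 10 of their genes (*Saa1*, *Saa2*, *Saa3*, *Saa4*, *Hp*, *Hpx*, *Orm1*, *Orm2*, *Itih4* and *Crp*) were followed here, chosen by name from the 16623 genes of a single-cell RNA sequencing study of mouse liver. The study compared 3 wild-type with 3 SIRT7-/- mice, all 5 to 6 months old. The SIRT7-/- mice lack the histone deacetylase SIRT7 in every cell of the body and develop spontaneous NASH on a chow diet, and the wild-type mice carry no deletion. From each liver, 3000 hepatocytes and 3000 non-parenchymal cells were mixed after collagenase perfusion and loaded on the 10x Genomics 3′ platform. Hepatocyte-like cells nonetheless made up 8.96% to 64.4% of the cells of a mouse in the data. All 6 livers went through that perfusion. The question put to the data was whether these genes differed between the genotypes in hepatocytes or in other cells, and whether single mice carried an acute phase response.

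As background, interleukin-1, tumor necrosis factor and interleukin-6 released by macrophages act on hepatocytes through NF-kB, C/EBP and STAT3, which raise the positive acute phase genes, while negative ones such as albumin fall. In mice, serum amyloid A1 and A2, high density lipoprotein proteins encoded by *Saa1* and *Saa2*, are the strongest responders. *Saa3* is made largely outside hepatocytes, and *Saa4* is the constitutive member of the family. Haptoglobin (*Hp*) binds free hemoglobin and hemopexin (*Hpx*) binds heme. The orosomucoids (*Orm1*, *Orm2*) carry drugs and lipids in plasma, *Itih4* encodes a heavy chain of the inter-alpha-trypsin inhibitor family, and C-reactive protein (*Crp*), a major responder in humans, responds little in mice.

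The *Saa* genes lie together on chromosome 7 (GRCm38, GENCODE annotation). *Saa3* spans 46711998 to 46715700, *Saa4* 46727998 to 46732603 and *Saa1* 46740497 to 46742980, all on the minus strand, and *Saa2* spans 46751790 to 46754313 on the plus strand, so that *Saa1* and *Saa2* are transcribed away from each other. The promoters of *Saa1*, *Saa2* and *Saa4* are shown because the first and the second gene share a near-identical upstream region yet differed in their balance between the genotypes, while the last gave the only call in hepatocytes. Each line gives the 250 bases before the RefSeq start of the gene (GRCm38.p6), in the direction of transcription, at chr7:46742981-46743230 on the minus strand for *Saa1*, chr7:46751583-46751832 on the plus strand for *Saa2* and chr7:46732604-46732853 on the minus strand for *Saa4*, with matches to a C/EBP motif in capitals. RefSeq and GENCODE starts can differ, and the *Saa2* window ends inside the GENCODE span of the gene.
Saa1: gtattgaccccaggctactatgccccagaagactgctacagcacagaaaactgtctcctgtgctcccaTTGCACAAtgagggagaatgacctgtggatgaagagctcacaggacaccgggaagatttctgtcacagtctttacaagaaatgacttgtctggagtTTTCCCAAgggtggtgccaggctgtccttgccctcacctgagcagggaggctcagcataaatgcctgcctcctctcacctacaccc
Saa2: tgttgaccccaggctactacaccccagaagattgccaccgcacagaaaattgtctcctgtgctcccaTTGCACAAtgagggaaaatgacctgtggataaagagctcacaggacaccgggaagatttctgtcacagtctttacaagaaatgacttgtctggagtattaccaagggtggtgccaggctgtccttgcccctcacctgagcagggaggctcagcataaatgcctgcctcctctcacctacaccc
Saa4: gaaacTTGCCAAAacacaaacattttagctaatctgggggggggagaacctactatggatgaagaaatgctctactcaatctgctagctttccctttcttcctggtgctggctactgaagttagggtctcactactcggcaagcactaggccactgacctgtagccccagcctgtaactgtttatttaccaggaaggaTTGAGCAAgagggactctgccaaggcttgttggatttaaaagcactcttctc
The *Saa1* and *Saa2* promoters were 94.8% identical, and those of *Saa1* and *Saa4* 49.5%. The C/EBP letters searched on both strands were TTNNGNAA, which reads TTNCNNAA on the other strand. They matched 2 times in *Saa1*, 1 time in *Saa2* and 2 times in *Saa4*, and 36.9% of 27025 promoters held at least 1 match. An NF-kB consensus motif, searched on both strands, matched none of the 8 member promoters found in RefSeq, against 1.40% of all promoters, and a STAT motif (TTCNNNGAA) matched only *Itih4* among them, against 7.18%. The other member promoters found, those of *Saa3*, *Hpx*, *Orm2* and *Crp*, held 4, 2, 2 and 1 C/EBP matches. A match is a description of letters in this window, and no binding was measured.

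The 6 libraries held 11610 cells, from 552 in SIRT7-/- mouse 3 to 5609 in SIRT7-/- mouse 1, with 2511947 to 11069411 UMIs (unique molecular identifiers, 1 per counted RNA molecule) per mouse, and 13 of 11597 distinct barcodes occurred in more than 1 mouse. Clustering gave 2937 cells that carried hepatocyte markers, 800, 514 and 98 of them wild-type and 913, 277 and 335 SIRT7-/-. All 13 markers of hepatocyte 1 and all 9 of hepatocyte 2 were detected, with summed levels of 448 to 1009 and 55.4 to 149 CP10K per mouse. Hemoglobin genes led hepatocyte cluster 1, at 103 CP10K in wild-type mouse 1, 6.17 in SIRT7-/- mouse 1 and at most 0.27 in the others, so the 2 hepatocyte clusters are called by number. Cluster 1 held 481, 413 and 53 wild-type and 524, 235 and 64 SIRT7-/- cells. Cluster 2 held 319, 101 and 45 wild-type and 389, 42 and 271 SIRT7-/- cells. The mix of the clusters thus differed between mice, and its part in the pooled levels was not tested. Wild-type mouse 3 contributed few hepatocytes, and SIRT7-/- mouse 3 was sequenced deepest, with a median of 3291 UMIs per hepatocyte-like cell against 1198 to 1727 in the other mice. CP10K is the number of UMIs of a gene per 10000 UMIs of the cell, averaged here over the cells of a mouse. Every library stands for 1 mouse, and comparisons between genotypes were made with limma on log2(CP10K + 0.05) over mice, and p-values were adjusted by Benjamini-Hochberg within each class, across its whole gene table. *Sirt7* itself was at 0.816, 0.373 and 0.942 CP10K in wild-type and 0.155, 0.0692 and 0.150 in SIRT7-/- hepatocyte-like cells (log2 difference -2.07, limma adjusted p = 0.135), and passed the threshold in hepatocyte cluster 2 (adjusted p = 0.0449), macrophage-like (0.0351) and T-like cells (0.00774). The 3′ reads need not lie in the deleted part.

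Over all hepatocyte-like cells, none of the 10 genes passed the adjusted threshold of 0.05, and 8 of 10 had lower levels in SIRT7-/- mice. Before adjustment, p was under 0.05 for 1 higher (*Saa2*) and 4 lower genes (*Saa4*, *Hp*, *Orm2* and *Crp*). Among all 9821 genes tested, 0.112% passed the adjusted threshold, 0.0204% as higher and 0.0916% as lower, and 5.05% were higher and 2.02% lower at the unadjusted one. The median log2 difference of the 10 genes was -0.78, beside 0.15 over all genes. The summed level of the 10 was 46.3, 51.5 and 19.8 CP10K in wild-type and 18.7, 14.5 and 29.4 CP10K in SIRT7-/- mice, so wild-type mice 1 and 2 stood above the other 4 and the groups overlapped.

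The plasma protein genes used as a hepatocyte reference (10 genes, among them *Alb*, *Apoa1*, *Apoa2* and *Ttr*) also had lower sums in SIRT7-/- mice. Their sum was 666, 711 and 384 CP10K in wild-type and 375, 273 and 325 CP10K in SIRT7-/- hepatocyte-like cells. These groups did not overlap, as for 3.21% of single genes. Within each cluster they did overlap. In cluster 1, wild-type mouse 3 was at 465 and SIRT7-/- mouse 1 at 480 CP10K. In cluster 2, wild-type mouse 3 was at 287 and SIRT7-/- mouse 3 at 303 CP10K. A list of 9 immediate-early genes, which rise when cells are handled or stressed, summed to 9.65 to 30.3 CP10K in wild-type and 4.75 to 9.57 CP10K in SIRT7-/- mice. Markers of other cell types overlapped between the genotypes in these cells, with 0.683 to 2.52 against 1.003 to 5.29 CP10K for 9 macrophage genes and 0.184 to 1.58 against 0.204 to 7.79 CP10K for 10 neutrophil genes. Their part in the results was not tested. When the values were centred on the reference genes, which moved the median of all genes up by 0.82 on the log2 scale, *Saa1*, *Hpx*, *Orm1* and *Itih4* changed sign and *Saa2* passed the threshold (adjusted p = 0.0332). That centring called 435 genes higher and 14 lower, against 2 and 9 in the fit used here. Of the reference genes, *Alb*, *Ttr* and *Apoa1* are also negative acute phase genes, which an acute phase response lowers. Values set against the reference are therefore not independent of such a response.

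**Figure D1:**
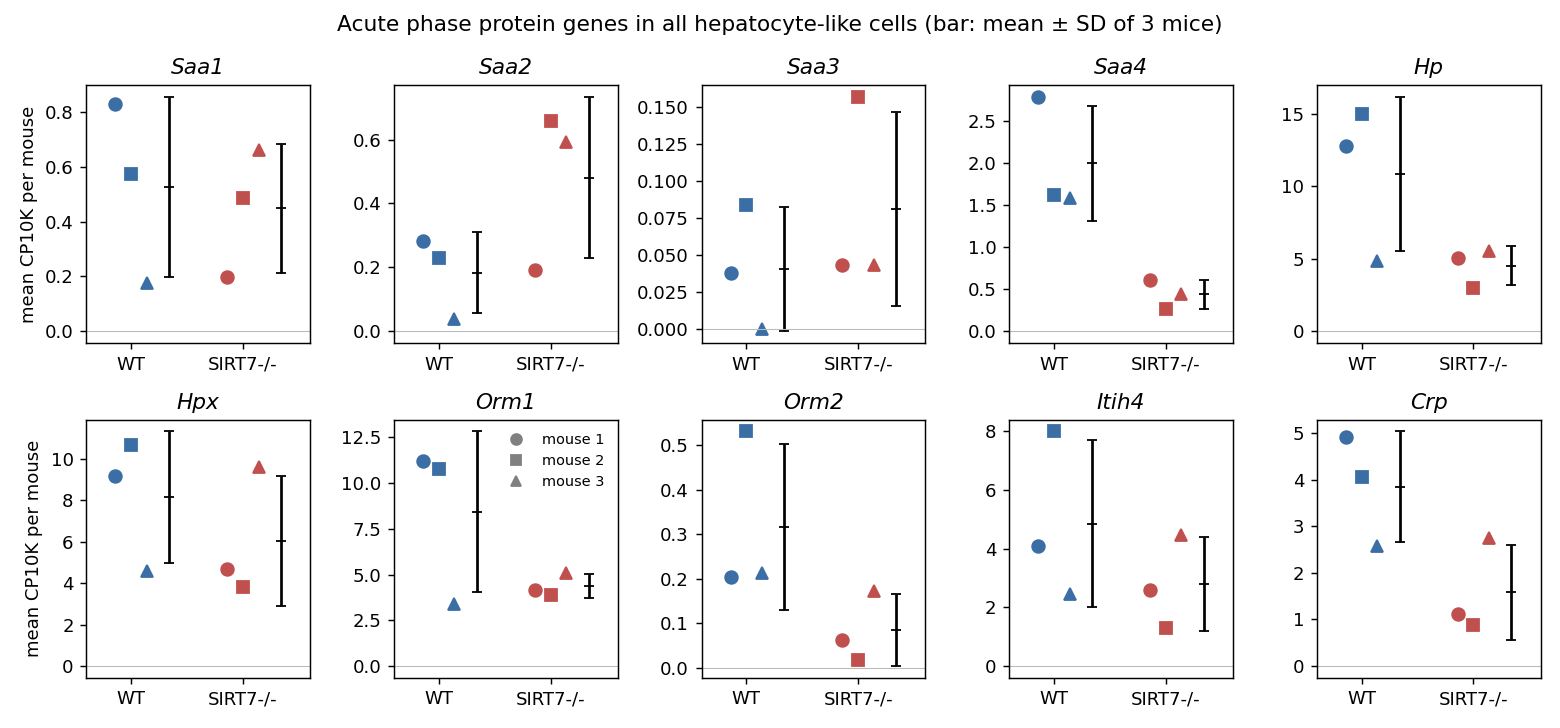
Mean CP10K (y axes, linear, 1 panel per gene) of the 10 genes in all hepatocyte-like cells of each mouse, wild-type (WT, blue) and SIRT7-/- (red), with the mean and SD of 3 mice beside the points. Every SIRT7-/- mouse lies below every wild-type mouse for *Saa4* and *Orm2*, and the groups overlap for the other 8.

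*Saa1* was at 0.831, 0.573 and 0.177 CP10K in wild-type livers and at 0.198, 0.486 and 0.663 CP10K in SIRT7-/- livers, resting on 4 to 131 UMIs each. High and low mice occurred in both genotypes, and the log2 difference was -0.13 (SE 0.53, limma adjusted p = 0.986). *Saa2* was at 0.281, 0.230 and 0.0393 CP10K in wild-type and 0.191, 0.660 and 0.593 CP10K in SIRT7-/- mice. SIRT7-/- mice 2 and 3 stood above all others while mouse 1 did not, where 9.37% of genes had every SIRT7-/- mouse above every wild-type mouse, and the log2 difference of 1.24 (SE 0.55) did not pass (adjusted p = 0.693). In hepatocyte cluster 1, *Saa2* was at 0.225, 0.250 and 0.0726 CP10K in wild-type and 0.318, 0.691 and 1.34 CP10K in SIRT7-/- mice. Every SIRT7-/- mouse was higher there, as for 7.70% of the 8580 genes tested in that cluster, with a log2 difference of 1.74 (SE 0.53, adjusted p = 0.187).

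The balance between the *Saa1* and *Saa2* counts, a comparison chosen after the values were seen, differed between the genotypes. *Saa2* gave 24.7% (43 of 174), 33.6% (36 of 107) and 20% (1 of 5) of the UMIs of both genes in the wild-type mice. It gave 50% (22 of 44), 57.1% (28 of 49) and 50% (91 of 182) in the SIRT7-/- mice. The means were 26.1% ± 6.93 and 52.4% ± 4.12 (SD, n = 3 mice each), and the 2 sets of mice did not overlap (p = 0.1 in a two-sided exact permutation test, the lowest value 3 mice against 3 allow). How often the balance of other gene pairs separates the mice was not computed. For levels of single genes in these cells, 9.37% had every SIRT7-/- mouse above every wild-type mouse. Exact 95% binomial intervals, which cover counting error only, ran from 18.5% to 31.8% in wild-type mouse 1 and from 42.5% to 57.5% in SIRT7-/- mouse 3, but from 0.505% to 71.6% in wild-type mouse 3. They treat UMIs as independent, yet a single cell gave 27.5% of those in SIRT7-/- mouse 3. Without its cells of 5 or more UMIs, that mouse was at 35.7%, below its interval, so the intervals are too narrow. The order of the groups held in cluster 1 (27.9% ± 5.01 against 55.2% ± 3.41, n = 3) and without the cells of 5 or more UMIs (19.3%, 33.6% and 20% against 51.6%, 55.2% and 35.7%). Single cells weighed heavily in cluster 1. In SIRT7-/- mouse 3, a single cell gave 29 of 39 *Saa2* and 21 of 35 *Saa1* UMIs there. In SIRT7-/- mouse 2, a single cell gave 12 of 26 and 8 of 18. The groups overlapped in cluster 2, where 4 mice had 12 or fewer UMIs of both genes, and in cells outside the hepatocyte clusters (32.1%, 33.3% and 40% against 46.3%, 45.2% and 37.5%). The transcripts of the 2 genes are 87.3% identical, and 92.4% over their last 300 bases, so reads of one could be counted for the other and the shares are uncertain to that extent.

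**Figure D2:**
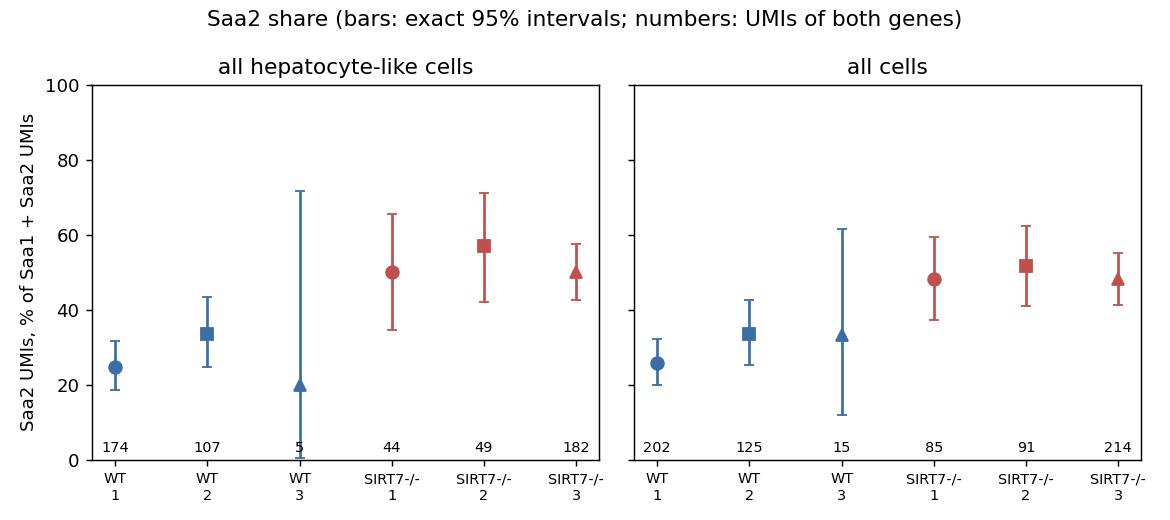
Percent of *Saa1* and *Saa2* UMIs that were *Saa2* (y axis) in each mouse (x axis), in all hepatocyte-like cells (left) and in all cells (right), with exact 95% binomial intervals and the number of UMIs of both genes under each point. The SIRT7-/- mice lie between 48.1% and 57.1% in both panels, above all wild-type mice, of which mouse 3 rests on 5 and 15 UMIs.

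Within a mouse, *Saa1* and *Saa2* were spread unevenly over hepatocytes. A UMI of either gene was found in 12.5%, 15.2% and 4.08% of the wild-type and 2.74%, 7.22% and 19.7% of the SIRT7-/- hepatocyte-like cells. The highest cell of each wild-type mouse held 41, 4 and 2 UMIs, and that of each SIRT7-/- mouse 8, 20 and 50 UMIs. Cells with 5 or more UMIs numbered 2, 0 and 0 in wild-type and 2, 1 and 7 in SIRT7-/- mice, and the single highest cell gave 23.6% of the UMIs in wild-type mouse 1, 40.8% in SIRT7-/- mouse 2 and 27.5% in SIRT7-/- mouse 3. The highest of all, in the deeply sequenced SIRT7-/- mouse 3, carried 21 *Saa1* and 29 *Saa2* UMIs among 12171. A wild-type mouse 1 cell carried 23 *Saa1* and 18 *Saa2* UMIs among 2698, which is 152 CP10K, and a SIRT7-/- mouse 2 cell 8 *Saa1*, 12 *Saa2* and 5 *Saa3* UMIs among 2025. Cells of this kind thus occurred in both genotypes, in few hepatocytes. T-like cells, which should lack both genes, held a *Saa1* UMI in 0.00% to 6.45% of cells (median depth 1075 to 3241 UMIs) against 1.64% to 15.5% of hepatocyte-like cells.

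**Figure D3:**
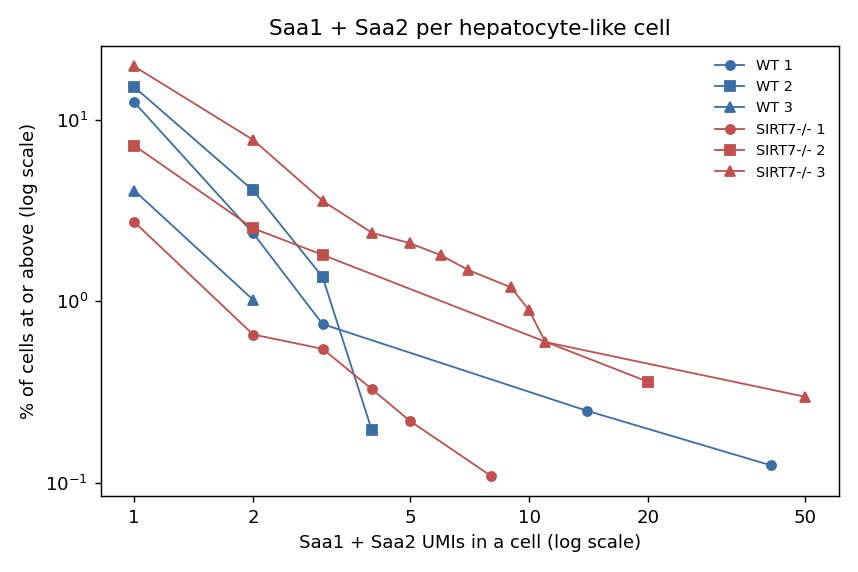
Percent of hepatocyte-like cells (y axis, log scale) with at least the number of *Saa1* and *Saa2* UMIs on the x axis (log scale), 1 line per mouse. SIRT7-/- mouse 3 has the highest share at every number up to 11 UMIs, and single cells reach 41 UMIs in wild-type mouse 1 and 50 in SIRT7-/- mouse 3.

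*Saa3* was rare in hepatocytes and came mostly from a handful of other cells. Of its 211 UMIs, 30 were in hepatocyte-like cells, at 0.0376, 0.0836 and 0 CP10K in wild-type and 0.0433, 0.157 and 0.0431 CP10K in SIRT7-/- mice (log2 difference 0.54, SE 0.55, adjusted p = 0.916). Wild-type mouse 3, with 0 UMIs, had the fewest cells. The remaining 181 UMIs (85.8%) were in 37 of 8673 cells outside the hepatocyte clusters, and 8 of those cells held 145 of them (80.1%). By count, 5 of the 8 were from SIRT7-/- mouse 2, 2 from SIRT7-/- mouse 1 and 1 from wild-type mouse 2, spread over 4 clusters. After their values were seen, 5 of the 8 were found to carry *Prg4*, which encodes lubricin and occurred in 19 of the 8673 cells (0.219%), together with UMIs of *Alox15*, *Fn1*, *Thbs1* and *Ecm1*. The cell with the most *Saa3* had 52 UMIs of it among 10355. They are given no cell type name, since no marker list for such cells was set.

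*Saa4* fell in SIRT7-/- cells of hepatocyte cluster 1, and it was the only member called in hepatocytes. Over all hepatocyte-like cells it was at 2.79, 1.61 and 1.58 CP10K in the wild-type and 0.612, 0.258 and 0.437 CP10K in the SIRT7-/- mice. All 3 SIRT7-/- mice lay below all 3 wild-type mice, as for 3.21% of genes, and the group means were 1.99 ± 0.687 and 0.436 ± 0.177 CP10K (SD, n = 3). The log2 difference was -2.09 (SE 0.41), a 4.26-fold lower level, with an adjusted p of 0.103 by limma. In hepatocyte cluster 1 the gene passed the threshold, at 2.40, 1.58 and 1.17 against 0.331, 0.294 and 0.369 CP10K (log2 difference -2.16, SE 0.38, adjusted p = 0.00835), where 0.478% of 8580 genes passed, 0.338% as lower and 0.14% as higher. At an unadjusted p under 0.05 there, 3 members were lower and 1 was higher, against 6.22% and 3.74% of the genes tested. In cluster 2 it was at 3.37, 1.75 and 2.06 against 0.990, 0.0558 and 0.453 CP10K (log2 difference -2.62, SE 0.72, adjusted p = 0.268), where 0.275% of 10193 genes passed, 0.157% as lower and 0.118% as higher. At an unadjusted p under 0.05 there, 4 of 9 members tested were lower and none was higher, against 2.75% and 7.07% of genes, with *Saa3* under the filter.

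Set against the reference plasma protein genes, which were lower as well, the difference in *Saa4* was smaller, and the cluster 1 call was lost. Over the reference UMIs, the ratio of the group means was 2.48-fold. The 4.26-fold above is a limma estimate on log2 values, so the 2 are not the same measure. Relative to the UMIs of the reference genes in the same cells, *Saa4* was at 0.443%, 0.207% and 0.361% in wild-type and 0.179%, 0.0820% and 0.147% in SIRT7-/- mice, again without overlap, as for 0.255% of all genes tested. The share of hepatocyte-like cells with a *Saa4* UMI was 36.0%, 25.9% and 21.4% against 8.98%, 3.61% and 15.5%. When every cell was thinned to 500 UMIs, it was 12.6%, 7.39% and 10.2% against 3.50%, 1.81% and 2.39%. T-like cells, which should lack the gene, held a UMI in 17.2%, 5.73% and 3.57% of wild-type and 2.83%, 0.774% and 3.23% of SIRT7-/- cells as measured, so this background was also lower in every SIRT7-/- mouse. The order was the same with thinned cells, on 13 T-like cells with a UMI, and its part in the result was not tested. The call in cluster 1 was lost with the reference centring (log2 difference -1.46, adjusted p = 0.166), with thinned cells (-1.80, 0.0624) and with the replicate number as a block (-2.16, 0.297). Without SIRT7-/- mouse 2 the gene passed over all hepatocyte-like cells (-1.80, 0.0482), and in cluster 2 it passed without SIRT7-/- mouse 1 (-3.35, 5.06e-07) or mouse 3 (-2.82, 2.03e-05).

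**Figure D4:**
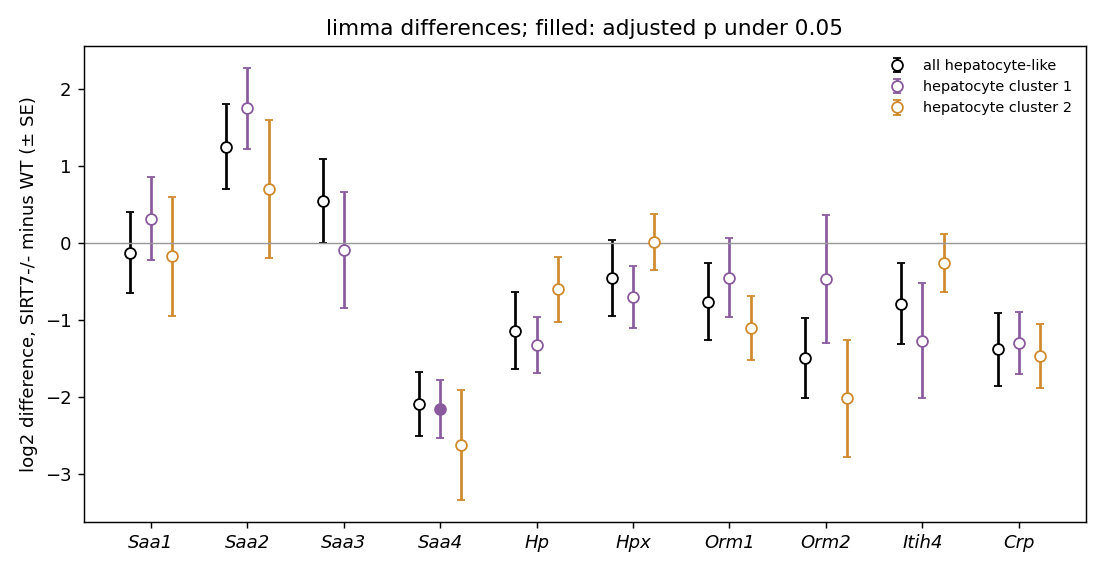
log2 difference (SIRT7-/- minus wild-type, with standard error, y axis) of each of the 10 genes (x axis) from limma in all hepatocyte-like cells and in each hepatocyte cluster, filled where the adjusted p was under 0.05. *Saa4* lies between -2.62 and -2.09 in all 3 and is filled in cluster 1 only, and *Saa2* is the one gene above 0.5 in all 3.

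Neither the hemoglobin nor the heme scavenger was called in the fits used here, before any alternative setting. *Hp* (chromosome 8, 109575128 to 109579172) was at 12.8, 15.0 and 4.83 CP10K in wild-type and 5.05, 3.003 and 5.51 CP10K in SIRT7-/- mice. Wild-type mice 1 and 2 were high, and wild-type mouse 3 lay among the SIRT7-/- mice (log2 difference -1.15, SE 0.50, limma adjusted p = 0.679). In cluster 1 its groups did not overlap (12.2, 16.8 and 6.00 against 5.02, 2.91 and 5.22 CP10K), as for 8.55% of genes there, with an adjusted p of 0.177. It passed without wild-type mouse 3 (log2 difference -1.74, adjusted p = 0.0244) and with thinned cells (-1.13, 0.0306). *Hpx* (chromosome 7, 105591613 to 105600137) was at 9.17, 10.7 and 4.58 against 4.68, 3.81 and 9.63 CP10K, with overlap and a log2 difference of -0.46 (SE 0.49, adjusted p = 0.930). In cluster 2 its log2 difference was 0.01 (SE 0.36, adjusted p = 0.996). Relative to the reference genes there, *Hpx* was at 1.62%, 1.78% and 1.86% in wild-type and 2.62%, 3.89% and 3.28% in SIRT7-/- mice, without overlap (p = 0.1, two-sided exact permutation test, the lowest value possible). As 28.3% of the genes tested in that cluster had such ratios, this is not particular to *Hpx*.

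*Orm1* (chromosome 4, 63344560 to 63348163) was at 11.2, 10.8 and 3.39 CP10K in wild-type and 4.13, 3.90 and 5.09 CP10K in SIRT7-/- mice (log2 difference -0.77, SE 0.50, adjusted p = 0.833). As for *Hp*, wild-type mice 1 and 2 were high and wild-type mouse 3 was not. *Orm2* (chromosome 4, 63362449 to 63365878) was at 0.204, 0.530 and 0.213 against 0.0635, 0.0179 and 0.174 CP10K. Its groups did not overlap, as for 3.21% of all genes, and the log2 difference of -1.497 (SE 0.52) had an adjusted p of 0.614 and rested on 136 UMIs. The transcripts of the pair are 91.0% identical, and 97.7% over the last 300 bases, so the split of reads between them is uncertain, and *Orm2* made 0.543% to 5.36% of the UMIs of both genes with overlap between the genotypes. *Orm1* passed in cluster 2 without SIRT7-/- mouse 3 (log2 difference -1.43, adjusted p = 0.0441).

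*Itih4* (chromosome 14, 30886476 to 30902353) was at 4.09, 7.99 and 2.46 CP10K in wild-type and 2.59, 1.30 and 4.47 CP10K in SIRT7-/- mice, with overlap (log2 difference -0.79, SE 0.53, adjusted p = 0.839). *Crp* (chromosome 1, 172698055 to 172833031) was at 4.92, 4.05 and 2.57 against 1.11, 0.868 and 2.76 CP10K. SIRT7-/- mice 1 and 2 were low and mouse 3 lay just above wild-type mouse 3 (log2 difference -1.39, SE 0.47, adjusted p = 0.575). In cluster 2 its groups did not overlap (6.32, 3.87 and 3.15 against 1.35, 0.884 and 2.79 CP10K), as for 4.52% of genes there, with a log2 difference of -1.47 (SE 0.42, adjusted p = 0.197). Without SIRT7-/- mouse 3 *Crp* passed in cluster 1 (log2 difference -1.79, adjusted p = 0.0106) and in cluster 2 (-1.91, 0.00308).

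By CP10K, no mouse had the highest level of all these genes at once. Wild-type mouse 1 had the most *Saa1*, *Saa4*, *Orm1* and *Crp*, wild-type mouse 2 the most *Hp*, *Hpx*, *Orm2* and *Itih4*, and SIRT7-/- mouse 2 the most *Saa2* and *Saa3*. SIRT7-/- mouse 2 also had the least *Hp*, *Hpx*, *Itih4*, *Crp*, *Saa4* and *Orm2* of all 6 mice. SIRT7-/- mouse 3, with the highest summed level of *Saa1* and *Saa2* (1.26 CP10K against 1.15 in SIRT7-/- mouse 2 and 1.11 in wild-type mouse 1), had 29.4 CP10K of the 10 genes together, below wild-type mice 1 and 2. Wild-type mouse 3 was lowest for *Saa1*, *Saa2*, *Saa3* and *Orm1*. The order of the mice depended on the scaling. Relative to the reference UMIs, SIRT7-/- mouse 3 had the most *Saa1* (0.227%), *Hpx* (3.03%), *Itih4* (1.40%) and *Crp* (0.872%). On that scale SIRT7-/- mouse 3 was not the highest for *Saa2*, *Saa3*, *Saa4*, *Hp*, *Orm1* or *Orm2*.

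The other positive acute phase genes had mostly lower levels in SIRT7-/- mice as well. Of 23 other positive acute phase genes, 22 were tested, 18 had lower and 4 higher levels in SIRT7-/- mice, 10 were lower at an unadjusted p under 0.05 and none was called, with a median log2 difference of -1.01 beside 0.15 over all genes. Of all genes tested, 37.7% had lower levels and 2.02% were lower at that p. *Mt1*, which encodes the metal-binding metallothionein 1, was at 44.5, 15.8 and 4.35 CP10K in wild-type and 1.53, 3.64 and 1.69 CP10K in SIRT7-/- mice (log2 difference -2.75, SE 0.67, adjusted p = 0.245). The complement gene *C3* was at 15.2, 32.7 and 12.9 against 7.62, 3.86 and 10.0 CP10K, and the fibrinogen gene *Fgg* at 17.7, 15.9 and 6.95 against 6.72, 1.72 and 7.92 CP10K. *Hamp*, which encodes the iron hormone hepcidin and responds to interleukin-6, was at 53.1, 41.8 and 39.5 against 62.3, 56.1 and 49.8 CP10K (log2 difference 0.33, SE 0.46, adjusted p = 0.961), so its levels did not follow those of *Mt1*. In cluster 1, *Fgl1*, which encodes the fibrinogen-like protein 1, fell (2.43, 4.66 and 1.505 against 0.991, 0.614 and 0.742 CP10K, log2 difference -1.68, SE 0.37, adjusted p = 0.0407).

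The negative acute phase genes were lower too, where an acute phase response lowers them and raises the positive ones. Over all hepatocyte-like cells, all 9 had log2 differences below 0, of which 3 had an unadjusted p under 0.05, with a median of -1.03 and none called, beside 37.7% of all genes below 0, 2.02% lower at that p and a median of 0.15. The list shares *Alb*, *Ttr* and *Apoa1* with the reference genes, so its lower levels are not a separate result from theirs. *Alb* was at 126, 185 and 52.6 CP10K in wild-type and 46.5, 22.2 and 83.8 CP10K in SIRT7-/- mice. *Ttr*, *Trf* and *Apoa1*, which encode transthyretin, transferrin and apolipoprotein A1, had log2 differences of -0.71, -0.81 and -0.35 with adjusted p of 0.849, 0.833 and 0.954 by limma. *Fetub*, which encodes fetuin-B, fell in cluster 1 (1.41, 4.23 and 2.49 against 0.548, 0.496 and 0.995 CP10K, log2 difference -1.85, SE 0.39, adjusted p = 0.0282).

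The genes that carry the acute phase signal to the hepatocyte nucleus had smaller differences, none of them called. Of 20 receptors, kinases and transcription factors, 18 were tested, none was called, 6 had higher and 12 lower levels, and the median log2 difference was -0.14. *Lifr*, which encodes the leukemia inhibitory factor receptor, was at 3.32, 2.75 and 4.76 against 1.47, 0.881 and 2.40 CP10K, without overlap, as for 3.21% of all genes (log2 difference -1.24, SE 0.44, adjusted p = 0.618). *Cebpb*, a C/EBP factor induced by interleukin-6, was at 12.3, 4.29 and 4.33 against 5.40, 6.84 and 5.88 CP10K, with wild-type mouse 1 high. The liver factors *Cebpa* and *Hnf4a* had log2 differences of -0.38 and 0.09 with adjusted p of 0.917 and 0.986. Of the 6 binding partners 5 were tested and none was called, and of these *Ambp*, *Itih2*, *Itih1* and *Lrp1* had log2 differences of -1.002, -0.395, -0.23 and -0.15.

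The cytokine genes were read in macrophage-like cells, where 5 of 9 were tested and none was called, among 0.201% of 9945 genes. *Il1b* was at 3.45, 4.28 and 2.47 CP10K in wild-type and 3.10, 3.29 and 1.17 CP10K in SIRT7-/- mice (log2 difference -0.53, SE 0.36, adjusted p = 0.639). *Il6* was at 0.253, 0.258 and 0.175 against 0.0489, 0.191 and 0.0486 CP10K (log2 difference -1.05, SE 0.46, adjusted p = 0.445). *Il1a* and *Tnf* had log2 differences of 0.84 and 0.24 with adjusted p of 0.521 and 0.903. Of the mice with the most *Saa2*, SIRT7-/- mouse 2 lay within the wild-type range of *Il6*. SIRT7-/- mouse 3, with 84 macrophage-like cells, lay level with SIRT7-/- mouse 1 below that range. Values this low give no firm order of the mice.

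Position along the liver lobule was taken from a per-cell score of periportal against pericentral landmark genes, split within each mouse into 3 ranges of equal cell number, which are ranges of a score and not cell types. Between the periportal and the pericentral range, 0 of 10 genes were called, as were 0 of 9834 genes tested (percent called 0.00), of which 2732 had an unadjusted p under 0.05 by limma. The count over all genes was 1706 with voom, the weighting of limma for summed counts, 1291 without wild-type mouse 3, which had 32 cells per range, 714 with a pseudocount of 0.5 and 422 with a filter at 0.2 CP10K, so the count of 0 depends on these settings. *Saa1* had log2 differences (periportal minus pericentral) of 0.51, -0.53 and 0.47 in wild-type and -1.13, -1.42 and -1.57 in SIRT7-/- mice. Those of *Saa2* were 0.26, -1.40 and 1.77 in wild-type and -1.97, -2.03 and -1.03 in SIRT7-/- mice. All 3 SIRT7-/- mice had more of both genes in the pericentral range, for example 1.25 against 0.267 CP10K of *Saa2* in SIRT7-/- mouse 2. That pericentral range of 92 cells includes the cell with 12 *Saa2* UMIs among 2025, so its value rests in large part on a single cell. The difference between the genotypes in this gradient was -1.52 (SE 0.54) for *Saa1* and -1.89 (SE 0.78) for *Saa2*, with limma adjusted p of 0.766 for both, and 0 of 9834 genes passed (543 at an unadjusted p under 0.05). *Saa4*, *Hp*, *Hpx*, *Orm1* and *Crp* were higher in the periportal range in 4, 3, 4, 2 and 3 of 6 mice. *Saa2* was lower in the periportal range past the threshold with voom or without wild-type mouse 3.

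Outside hepatocytes, the member genes were read against the reference plasma protein genes, since free RNA from 1 source keeps its genes in 1 ratio in every class of cells. The reference genes summed to 24.9 to 210 CP10K in T-like and 10.3 to 143 CP10K in macrophage-like cells. In 6 classes with enough mice, 43 tests of members were made, 0 passed the threshold and 13 had an unadjusted p under 0.05 by limma, all of them lower in SIRT7-/- mice. These were 2 of 7 members tested in macrophage-like, 4 of 8 in T-like, 2 of 8 in unnamed, 3 of 7 in endothelial-like, 0 of 6 in plasma B-like and 2 of 7 in B-like cells, where 6.73%, 4.13%, 3.9%, 4.64%, 2.02% and 1.84% of all genes were lower at that p. All 10 reference genes had log2 differences below 0 in each of these classes too. In that order, their medians were -1.77, -1.38, -1.08, -1.38, -1.39 and -1.16. Those of the members tested were -0.90, -0.79, -0.06, -1.32, -0.59 and -0.55. The share of all genes called was 0.201% in macrophage-like, 0.130% in T-like, 0.0412% in a mixed cluster that was left unnamed, 0.337% in endothelial-like, 0.0782% in plasma B-like and 0.0215% in B-like cells. The endothelial-like class had 3 wild-type and 2 SIRT7-/- mice, and the plasma B-like and B-like classes 2 of each. *Itih4* in endothelial-like cells came nearest (log2 difference -1.94, SE 0.48, adjusted p = 0.0508), and 2 other positive acute phase genes, *Apcs* (-2.30, SE 0.54, 0.0340) and *Lrg1* (-2.80, SE 0.67, 0.0390), passed there. SIRT7-/- mouse 3, with 8 endothelial-like cells, was not in that fit and had 0.659 CP10K of *Lrg1*, within the wild-type range. *Itih4* was at 0.523%, 0.964% and 0.680% of the reference UMIs in endothelial-like cells of wild-type and 0.2002%, 0.873% and 1.75% in those of SIRT7-/- mice, with overlap. Without SIRT7-/- mouse 1, 4 of the tests passed (*Orm1* in T-like cells and *Hp*, *Orm1* and *Itih4* in endothelial-like cells), and without wild-type mouse 3, 2 passed (*Orm1* in endothelial-like and plasma B-like cells).

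The ratio of *Saa4* to the reference genes was also lower in some other cells of the SIRT7-/- mice. In macrophage-like cells it was 0.428%, 0.253% and 0.331% in wild-type and 0.125%, 0.0937% and 0.127% in SIRT7-/- mice, without overlap, as for 0.322% of the genes tested there. The macrophage-like ratios rested on 11, 3 and 10 *Saa4* UMIs in wild-type and 40, 2 and 4 in SIRT7-/- mice. The genotypes did not overlap in the unnamed mixed cluster either (0.272%, 0.408% and 0.189% against 0.137%, 0.113% and 0.118%), as for 0.329% of genes. Those ratios rested on 9, 8 and 8 against 13, 2 and 2 *Saa4* UMIs. With so few UMIs, both separations are uncertain. In T-like cells they overlapped, at 0.334%, 0.161% and 0.234% against 0.166%, 0.154% and 0.114%. The level of *Saa4* in macrophage-like cells had a log2 difference of -1.85 (SE 0.63, adjusted p = 0.302).

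*Hp* departed from the reference genes in neutrophil-like cells, which was noticed after the values were seen. There it was at 4.33%, 2.82% and 10.5% of the reference UMIs in wild-type and 10.9%, 20.6% and 13.9% in SIRT7-/- mice, against 1.03% to 2.19% in hepatocyte-like cells, and above the hepatocyte ratio of the same mouse in 6 of 6 mice. The ratio was 1.29 to 19.95 times that of hepatocytes. In the unnamed mixed cluster it was 2.36%, 2.95% and 1.96% against 2.99%, 7.75% and 3.12%, also above hepatocytes in 6 of 6 mice. In T-like cells it lay above in 4 of 6 mice, at 1.39% to 2.86%. *Hp* was not alone in this. *Orm1* lay above its hepatocyte ratio in 6 of 6 mice in the unnamed cluster (1.07 to 1.71 times) and in 5 of 6 in neutrophil-like cells. *Orm2* did so in 6 of 6 mice in macrophage-like cells, on 1 to 6 UMIs per mouse. The share of all genes above that ratio was not computed. Neutrophil-like cells numbered 10 to 212 per mouse, with 20 or more in 1 wild-type and 2 SIRT7-/- mice only, and were not compared between the genotypes by a test.

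**Figure D5:**
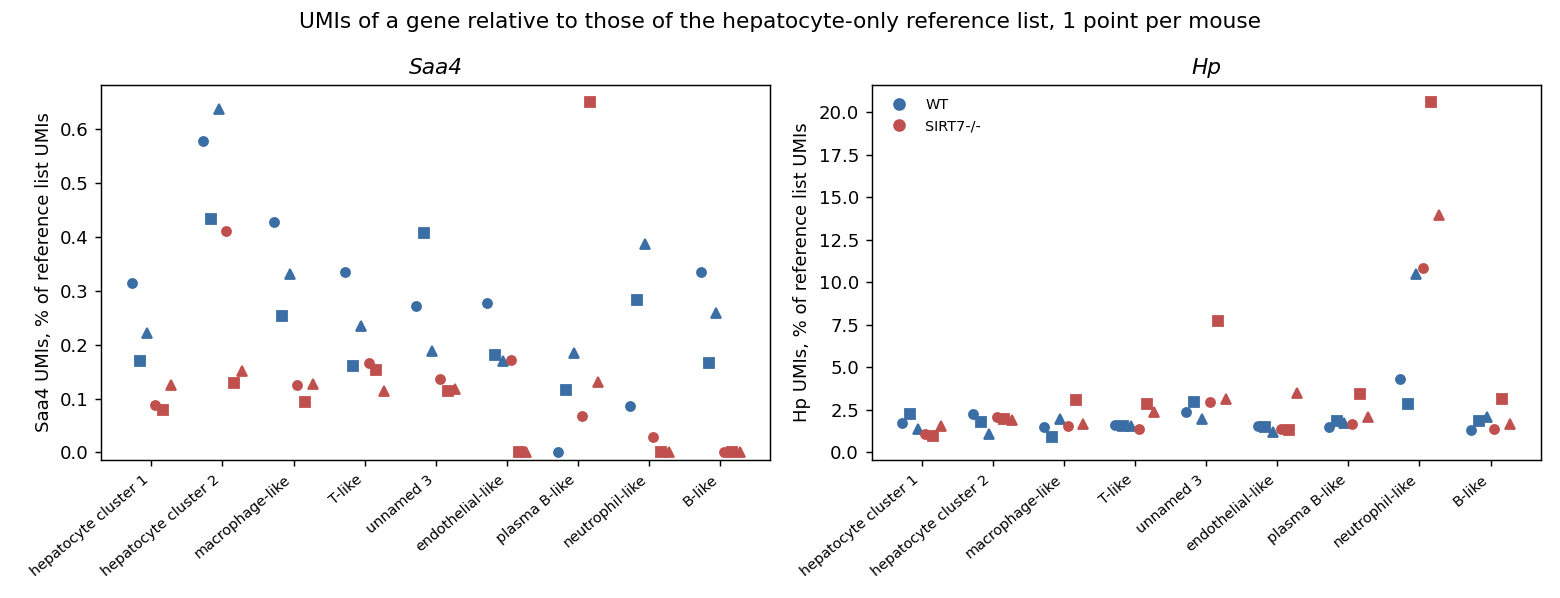
UMIs of *Saa4* (left) and *Hp* (right) as a percent of the UMIs of 10 hepatocyte plasma protein genes in the same cells (y axes), by cell class (x axis), 1 point per mouse, wild-type (WT) in blue and SIRT7-/- in red. *Saa4* is lower in the SIRT7-/- mice in both hepatocyte clusters and in macrophage-like cells, where it rests on 2 to 40 UMIs per mouse. *Hp* reaches 20.6% in neutrophil-like cells against at most 2.26% in the hepatocyte clusters.

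Over the 12 values of 6 mice in 2 hepatocyte clusters, the genes whose levels were most like the summed level of *Saa1* and *Saa2*, among 3347 genes with at least 0.5 CP10K, were *Acot1* (Pearson r = 0.84), *Mrps17* (0.83), *Apol9b* (0.82), *Nkiras1* (0.80) and *Fxyd1* (0.79). The points share libraries and depth, and the values are a description. None of the 5 is among the acute phase lists used here.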

How the data were processed

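Single-cell RNA was measured in 3 wild-type and 3 SIRT7-/- mouse livers. The authors aligned and counted the reads with Cell Ranger 6.0.0 (submitters' processing notes), and deposited the 6 libraries as 1 table of natural log values, ln(CP10K + 1), already filtered. Counts of UMIs were recovered from these values, which all came out whole within a tolerance of 0.02. The totals per mouse, 2511947 to 11069411 UMIs, limit the precision of low genes.

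Cells were clustered (scanpy 1.11.5, leidenalg 0.10.2) on 982 variable genes, without 18 acute phase genes, with 50 principal components, 3 neighbours per mouse and a Leiden resolution of 0.35. Clusters were named X-like from marker lists, so names are rebuilt and not those of the study, and a cluster whose leading genes came from 3 or more lists stayed unnamed. Scrublet marked 46 cells (0.396%), too few to have worked, so no cell was removed. Mean CP10K per mouse and class, with at least 20 cells, was tested on log2(CP10K + 0.05) with limma 3.58.1 (R 4.3.3, trend and robust), keeping genes whose mean reached 0.05 CP10K, two-sided, Benjamini-Hochberg adjustment over all of them and a threshold of 0.05. Log2 differences understate those of low genes. Single values were compared with exact permutation tests over mice. The scripts were tested on simulated data. Alternatives covered pseudocount, filter, scaling, weighting, thinning, doublets, cell minimum, clustering, a replicate block and leaving out each mouse.

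Genes named are the 10 members in every class, and from fixed lists the most abundant 4 tested genes and any called gene. The members and lists were chosen with earlier results of these data known. Labels number the replicates, and each is read as 1 mouse, with no batch given. In all hepatocyte-like cells, same-numbered mice correlated at -0.049, 0.153 and 0.040 in their deviations from the group means, so the numbers were not taken to pair them. Intervals for shares are exact (Clopper-Pearson), cover counting error only and treat UMIs of the same cell as independent.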

Additional observations from a re-analysis of the deposited data

How the results depend on the processing

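Of the single-gene values recomputed, 337 kept their direction and side of the threshold, 18 newly passed it, 3 no longer passed, 8 changed sign and 1 moved. Of the counts of called members, 94 stayed and 23 moved. The causes were not tested. Over all hepatocyte-like cells the count of 0 became 1 with reference centring (*Saa2*) and with the replicate block (*Saa4*, though the numbers do not pair the mice), and was 0 to 1 with 1 mouse left out. In cluster 1 the count of 1 became 3 with voom and 0 with the block, and was 1 to 2 with 1 mouse left out. In cluster 2 the count of 0 became 1 with a pseudocount of 0.5, voom, thinned cells or at least 50 cells per mouse, and 2 with the block, and was 0 to 3 with 1 mouse left out. In other classes the count of 0 became 1 with a pseudocount of 0.5, without the highest 5% of doublet scores or with the members kept in the clustering, and 3 without a filter or with the block, and was 0 to 4 with 1 mouse left out. Between zones it became 1 with voom and was 0 to 1 with 1 mouse left out. *Saa1* changed sign with reference centring (0.68), thinned cells (0.43) and 1 mouse left out (-0.70 to 0.31), and *Hpx* (0.36), *Orm1* (0.0498) and *Itih4* (0.0247) did so with reference centring. The *Saa2* share difference of 26.3 percentage points was 18.4 in all cells, and 23.2 to 30.0 with 1 mouse left out. Genes called numbered 11 over all hepatocyte-like cells (3 to 449 over the alternatives), 41 in cluster 1 (2 to 447), 28 in cluster 2 (5 to 579), 81 in other classes (24 to 796) and 0 between zones (0 to 1706). Reference centring and the removal of the 5% highest doublet scores were chosen after seeing the data. Wild-type mouse 3, with 98 hepatocyte-like cells and 5 UMIs of *Saa1* and *Saa2*, limits what can be said of low genes there.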
